A study of Mus musculus with 25 samples.

Results

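The fibroblast growth factor (FGF) genes measured in the mamillary neuroepithelium of Lhx5 mutant and wild type mouse embryos were 37 in number, of 18820 genes named by the array. They were chosen by symbol and by role, with earlier results of these data known. They were 15 secreted ligands, 3 ligands of the endocrine subfamily, 4 FGF homologues that stay inside the cell, 5 receptors, 7 genes that dampen the signal and 3 Etv transcription factors. All 37 had a probe set annotated with their symbol alone, and where a gene had several the brightest was used. The KO group was labelled Lhx5 KO and held 13 samples from embryos at E10.5 homozygous for a floxed allele (Lhx5 fl/fl). In these embryos Cre had not removed the floxed exons, and the study describes the allele as a hypomorph and offers the loxP sites in its introns as a probable cause. It reports that an antibody to LHX1 and LHX5 gave no signal in the mamillary region of older embryos of this genotype. Such sections are not shown for E10.5, the stage of the arrays. The WT group held 12 samples from wild type embryos at E10.5, and both groups were C57BL/6. The tissue was dissected before the mamillary body (MBO) was visibly smaller in the mutant, and each embryo sample gave 1 array. The labels call the samples biological replicates without saying whether tissue was pooled, so p-values measure the spread between these samples.

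Values are log2 levels from Affymetrix Mouse Gene 1.1 ST arrays, so that a difference of 1 is a 2-fold change. For each probe set the mean of KO replicates 1 to 10 equalled the mean of KO replicates 11 to 13 (median absolute gap 1.33e-06 over 35550 probe sets), and how this came about is not given in the sources used here. The difference KO minus WT therefore is the difference between KO replicates 11 to 13 and WT, and it was tested with a separate term for KO replicates 1 to 10. The spread within KO replicates 1 to 10 is open to the same unknown step. Lhx5 itself averaged 7.92 in KO and 7.97 in WT (difference −0.04 ± 0.17 (SE), limma adjusted p = 0.960). All 9 listed hypothalamic genes, among them Foxb1 and Sim1, were well above background. WT replicate 10 stood apart: 6 genes of the midbrain and isthmus (En1, En2, Pax2, Pax5, Pax8 and Wnt1) averaged 6.99 there and at most 5.33 in any other WT array. The main correlations and SDs that rest on it are therefore also given without it.

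FGF ligands bind receptor tyrosine kinases on neighbouring cells with the help of heparan sulphate, and the receptors signal through RAS and the MAP kinases. The Etv factors carry this signal to the genome, and Sprouty, Spred, Dusp6 and Il17rd (Sef) are transcribed in response and restrain it, so their transcripts serve as a readout of FGF signalling in embryos. In the ventral diencephalon Fgf8 and Fgf10 are made next to the pituitary rudiment, and at the isthmus Fgf8 organises the midbrain and the cerebellum.

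No FGF gene passed the test between KO and WT. Of the 37 genes 0 had an adjusted p below 0.05 in limma, against 7 of all 28940 probe sets tested, or 0.0242% (0.0138% higher and 0.0104% lower in KO), and the lowest adjusted p among the 37 was 0.292. At an unadjusted p below 0.05 there were 3 genes, or 8.11%, against 10.3% of all probe sets. Of these, 2 were higher in KO (Fgf1 and Fgf23; background 6.2%) and 1 was lower (Fgf11; background 4.15%). The share of the 37 genes was thus near that of the array as a whole. The difference was above 0 for 16 genes and below 0 for 21, with a median of −0.04, against a median of 0.01 for all probe sets, of which 51.8% lay above 0. With genotype as the only term, which counts KO replicates 1 to 10 as evidence on the mean, 4 genes passed at an adjusted p below 0.05 (10.8%, against 16.7% of all probe sets). These were Fgf1 and Fgf23, higher in KO (background 9.68%), and Fgf11 and Fgf14, lower in KO (background 6.99%). At an unadjusted p below 0.05 that fit gave 8 genes, or 21.6% against 31.2% of all probe sets, with 2 higher (background 17.3%) and 6 lower (background 13.9%).

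**Figure D1:**
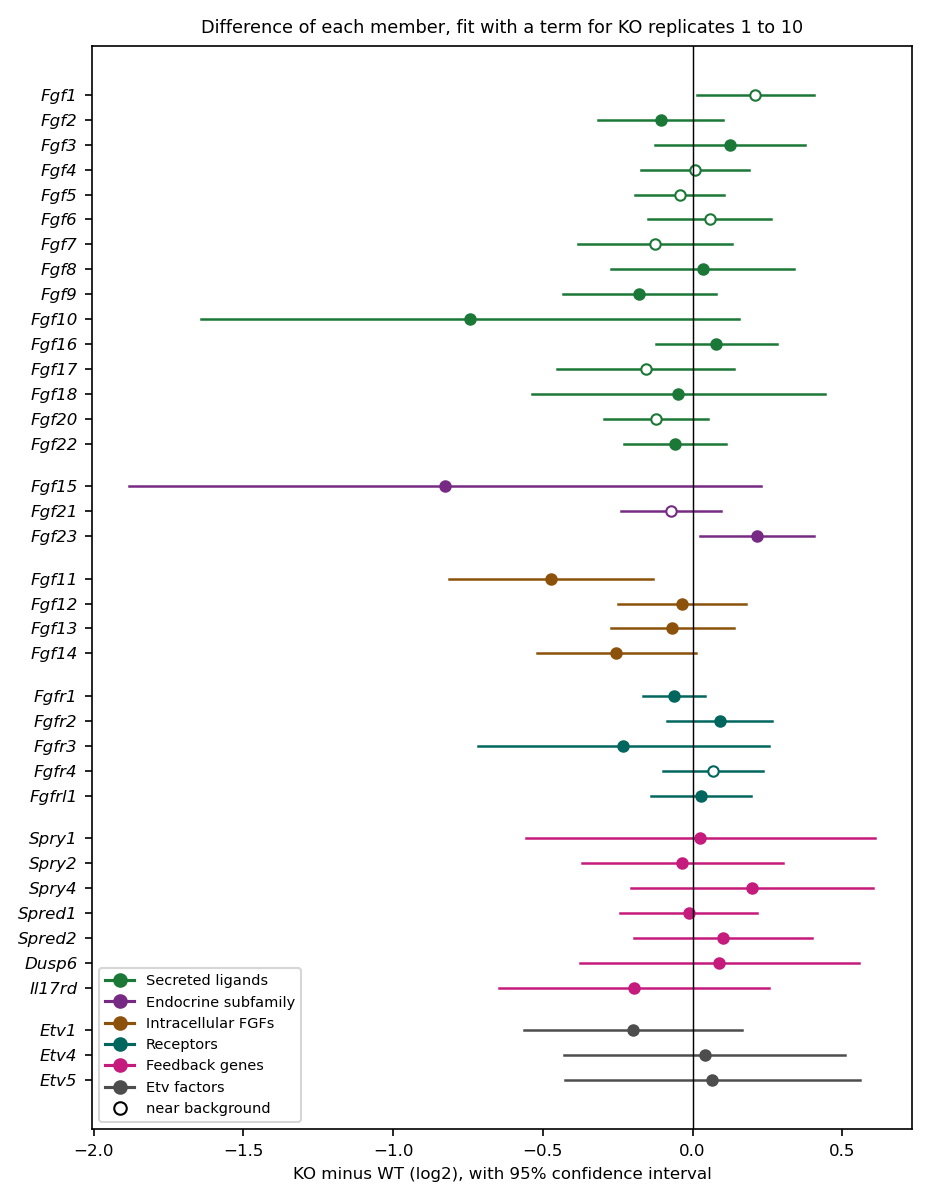
Difference KO minus WT on the log2 scale for the 37 genes, by role, as points with 95% confidence intervals from the fit with a term for KO replicates 1 to 10; open points are genes near background. The widest intervals are those of Fgf15 and Fgf10, and of the intervals only those of Fgf1, Fgf23 and Fgf11 leave out 0.

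Of the 15 secreted ligands, 7 (Fgf1, Fgf4, Fgf5, Fgf6, Fgf7, Fgf17 and Fgf20) lay near background, at or below the level of 3.40 that 95% of 1006 olfactory receptor probe sets did not exceed. Those 7 had mean levels of 2.98 to 3.29 in KO and 2.98 to 3.40 in WT. The median difference of the ligands was −0.05, with 6 higher and 9 lower.

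Fgf10, a ligand of the infundibulum that maintains pituitary progenitors, had levels of 5.67, 6.08 and 5.06 in KO replicates 11 to 13 and of 4.41 to 6.96 (median 5.44) in KO replicates 1 to 10, against 5.29 to 7.75 (median 6.18) in WT. One array of KO replicates 11 to 13, replicate 13, lay below every WT array, and the other two lay within the WT range. The difference was −0.74 ± 0.44 (SE; 95% confidence interval −1.64 to 0.16), with an adjusted p of 0.583 with the term and of 0.0543 with genotype alone. A change of the size that separates the means was not detectable against this spread.

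Fgf8, the ligand of the isthmic organiser and of the ventral diencephalon, had levels of 4.50, 4.70 and 4.37 in KO replicates 11 to 13 and of 4.23 to 5.03 (median 4.51) in KO replicates 1 to 10, against 4.09 to 5.10 (median 4.54) in WT. The groups overlapped almost entirely. The difference was 0.03 ± 0.15 (SE; 95% confidence interval −0.27 to 0.34; limma adjusted p = 0.964), and its sign turned when single arrays were left out.

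Fgf1, a ligand that binds every FGF receptor, had 3.32, 3.37 and 3.20 in KO replicates 11 to 13 and 2.89 to 3.56 (median 3.36) in KO replicates 1 to 10, against 2.94 to 3.19 (median 3.09) in WT. All of KO replicates 11 to 13 lay above all WT arrays, as did 0.536% of all probe sets, and 0 of the 37 genes lay wholly below, against 0.619% of all probe sets. For Fgf1, KO replicates 1 to 10 overlapped WT. The difference of 0.21 ± 0.10 (SE) had a limma adjusted p of 0.444. The exact permutation p was 0.0022, the smallest that 455 splits into 3 and 12 arrays allow. Every Fgf1 mean lay below the background level of 3.40. The remaining ligands differed by less: Fgf9 by −0.18 ± 0.12, Fgf17 by −0.16 ± 0.14, Fgf3 by 0.12 ± 0.12 and Fgf18 by −0.05 ± 0.24 (SE). Those not yet named ran from −0.13 ± 0.12 for Fgf7 to 0.08 ± 0.10 for Fgf16.

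Fgf15, the mouse member of the endocrine subfamily that is transcribed in the embryonic neural tube, was the FGF gene with the largest mean difference. Its levels were 6.16, 7.71 and 7.11 in KO replicates 11 to 13 and 5.28 to 8.69 (median 7.0) in KO replicates 1 to 10, against 7.11 to 9.02 (median 7.69) in WT. KO replicate 11 lay below all WT arrays, replicate 13 lay at the lower edge of the WT range and replicate 12 at the WT median. The difference was −0.83 ± 0.51 (SE; 95% confidence interval −1.88 to 0.23), with an adjusted p of 0.608 with the term and 0.0677 with genotype alone. The error of both fits includes the spread of KO replicates 1 to 10. With KO replicates 11 to 13 and WT alone, limma gave an unadjusted p of 0.0399 and an adjusted p of 0.426. The exact permutation p was 0.0791. Leaving out single arrays gave differences of −1.18 to −0.41, none with an adjusted p below 0.540.

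None of the 9 listed hypothalamic genes passed with the term, against 0.0242% of all probe sets. In 7 of them the mean was lower in KO, as for Fgf10 and Fgf15, whereas 51.8% of all probe sets had a difference above 0. The 9 listed hypothalamic genes averaged 6.35 to 6.75 in KO replicates 11 to 13 and 5.89 to 6.86 in KO replicates 1 to 10, against 6.63 to 7.26 in WT. Six3, a homeobox gene of the anterior neural plate, differed by −1.06 ± 0.29, and Rax, a homeobox gene of the eye field and hypothalamus, by −1.27 ± 0.39 (SE; limma adjusted p = 0.179 and 0.242 with the term, 0.00037 and 0.000964 with genotype alone). Otp differed by −1.28 ± 0.55, Nkx2-4 by −0.72 ± 0.20 (all of KO replicates 11 to 13 below all WT arrays), Nkx2-1 by −0.33 ± 0.24, Foxb1 by −0.16 ± 0.17 and Lhx5 by −0.04 ± 0.17, whereas Sim1 differed by 0.33 ± 0.21 and Lhx1 by 0.10 ± 0.45. With genotype alone 4 of the 9 passed, all lower in KO (Six3, Rax, Otp and Nkx2-4), or 44.4% against 16.7% of all probe sets (6.99% lower). Across arrays the mean of the 9 genes had a Pearson r with Fgf10 of 0.01 in KO replicates 1 to 10 and −0.22 in WT. With Fgf15 it was −0.38 and −0.13. None of these passed among the relations described below. Single genes ran both ways: in KO replicates 1 to 10, r with Fgf15 was 0.87 for Foxb1 and −0.78 for Nkx2-4. The part of the 9 genes in the values of Fgf10 and Fgf15 was not tested further. In tissue of this kind fewer cells of a type and less RNA per cell cannot be told apart.

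Fgf23, a hormone of phosphate balance in the adult, had 3.39, 3.74 and 3.71 in KO replicates 11 to 13 and 3.28 to 3.80 (median 3.65) in KO replicates 1 to 10, against 3.21 to 3.63 (median 3.39) in WT. Replicates 12 and 13 lay above all WT arrays and replicate 11 at the WT median. The difference was 0.21 ± 0.09 (SE; limma adjusted p = 0.413 with the term and 0.0103 with genotype alone), at a level close to background. Fgf21, the metabolic hormone of the liver, was near background and differed by −0.07 ± 0.08.

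Fgf11 to Fgf14 encode homologues that are not secreted and bind voltage-gated sodium channels. All 4 had a difference below 0, with a median of −0.16. Fgf11 had levels of 4.69, 4.94 and 5.01 in KO replicates 11 to 13 and 4.36 to 5.30 (median 4.96) in KO replicates 1 to 10, against 4.88 to 5.81 (median 5.27) in WT. Replicate 11 lay below all WT arrays, the others near the lowest of them. The difference of −0.47 ± 0.17 (SE; 95% confidence interval −0.81 to −0.13) had the smallest p of the 37 genes (unadjusted p = 0.00851, limma adjusted p = 0.292 with the term and 0.00244 with genotype alone). The two-sided exact permutation test of KO replicates 11 to 13 against the WT arrays gave p = 0.0176.

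Fgf14, a regulator of neuronal excitability in the adult, had 6.12, 6.04 and 6.40 in KO replicates 11 to 13 and 5.6 to 6.46 (median 6.26) in KO replicates 1 to 10, against 6.15 to 6.74 (median 6.42) in WT. Replicates 11 and 12 lay below all WT arrays and replicate 13 near the WT median. The difference was −0.25 ± 0.13 (SE; limma adjusted p = 0.504 with the term and 0.0268 with genotype alone). Fgf12 and Fgf13 differed by −0.04 ± 0.10 and −0.07 ± 0.10. Listed neuronal genes (2 of 4 measured, Stmn2 and Dcx) averaged 9.14 to 9.38 in KO replicates 11 to 13 and 8.42 to 10.1 in KO replicates 1 to 10, against 8.29 to 10.3 in WT. The part of neurons in the values of Fgf11 to Fgf14 was not tested.

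**Figure D2:**
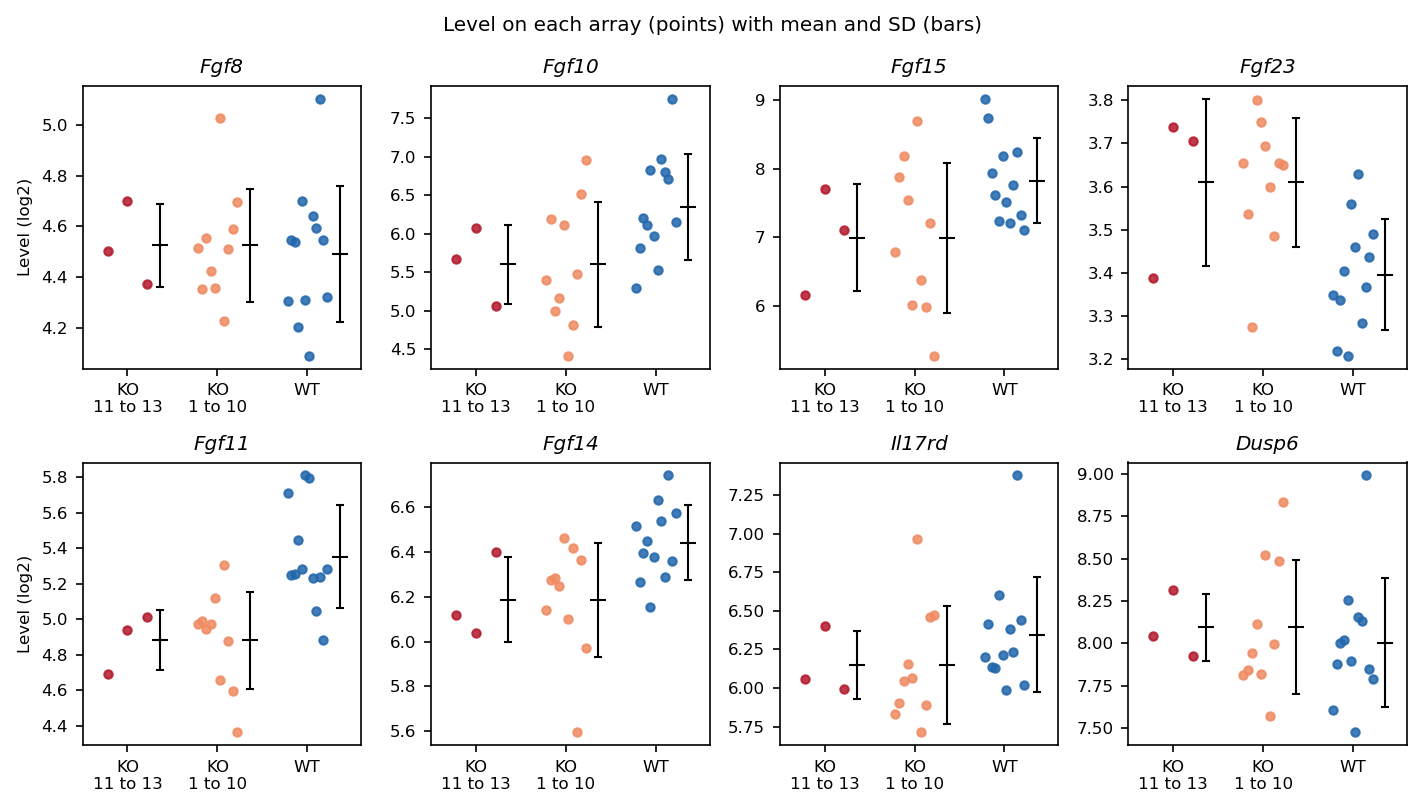
Log2 level on each array (points) of 8 FGF genes in KO replicates 11 to 13, KO replicates 1 to 10 and WT, with the mean and SD of each set as a bar; both KO sets have the same mean in the deposited values. Fgf10, Fgf15, Fgf11 and Fgf14 have lower KO means with overlapping points, and the highest WT point of Fgf8, Il17rd and Dusp6 is WT replicate 10.

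No receptor passed the test. Fgfr1, the main receptor of the early neural plate, averaged 9.79 in KO and 9.85 in WT, with the narrowest interval of all 37 genes (difference −0.06, 95% confidence interval −0.17 to 0.04). Fgfr2 differed by 0.09 ± 0.08 and Fgfrl1, a receptor without a kinase domain, by 0.03 ± 0.08 (SE). Fgfr3, which marks the ventricular zone, had 7.86, 7.84 and 8.08 in KO replicates 11 to 13 and 7.13 to 8.40 (median 8.06) in KO replicates 1 to 10, against 7.44 to 8.80 (median 8.19) in WT. These ranges overlapped throughout, and the difference was −0.23 ± 0.24 (SE; limma adjusted p = 0.792). Fgfr4 was near background and differed by 0.07 ± 0.08.

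None of the transcripts that report FGF signalling passed the test either. The differences of the 7 feedback genes and 3 Etv factors ran from −0.20 to 0.20, with standard errors of 0.11 to 0.28 and no adjusted p below 0.752. Dusp6, the phosphatase that inactivates ERK, had 8.04, 8.32 and 7.93 in KO replicates 11 to 13 and 7.57 to 8.83 (median 7.97) in KO replicates 1 to 10, against 7.48 to 8.99 (median 7.95) in WT. Spry4, a Sprouty inhibitor of the RAS pathway, differed by 0.20 ± 0.20, Il17rd by −0.20 ± 0.22 and Etv1 by −0.20 ± 0.18 (SE). The median difference was 0.03 for the feedback genes and 0.04 for the Etv factors. The 95% confidence intervals of the 10 genes reached from −0.65 to 0.61. By the order of probe set identifiers, the brightest probe sets of Etv1 and Etv5 sit among genes of other chromosomes. Their second probe sets, which sit on the genes' own chromosomes, differed by −0.14 ± 0.18 and −0.11 ± 0.24, against 0.07 ± 0.24 for the brightest probe set of Etv5.

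Beyond the 37 genes, 59 of 69 listed genes of the FGF pathway were measured, and 0 of them passed at an adjusted p below 0.05. At an unadjusted p below 0.05 there were 3, or 5.08%, all with a lower mean in KO, against 10.3% of all probe sets (4.15% lower). Ccnd1 (cyclin D1, a growth factor target that drives the G1 phase) averaged 10.8 in KO and 11.1 in WT, a difference of −0.30 ± 0.08 (SE; unadjusted p = 0.00114, limma adjusted p = 0.179). Spred3, an inhibitor of the RAS pathway, differed by −0.28 ± 0.11 and Nras by −0.16 ± 0.07. With genotype alone 4 genes passed, or 6.78% against 16.7% of all probe sets (6.99% lower), all lower in KO: these 3 and Gpc2, a heparan sulphate proteoglycan (−0.33 ± 0.19). By group the median difference was −0.04 for the 16 cascade genes, 0.04 for the 27 genes of co-receptors and heparan sulphate, and 0.03 for the 16 further response genes.

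In RefSeq (GRCm38.p6), Fgf3, Fgf4 and Fgf15 are consecutive coding genes on chromosome 7, and Fgf6 and Fgf23 on chromosome 6. None of these neighbours passed the test. On chromosome 7 Fgf15 differed by −0.83 ± 0.51, Fgf3 by 0.12 ± 0.12 and Fgf4 by 0.01 ± 0.09, and on chromosome 6 Fgf23 differed by 0.21 ± 0.09 and Fgf6 by 0.06 ± 0.10 (SE).

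Fgf15 and Fgf10 were among the genes that differed most between samples of the same genotype. Over KO replicates 1 to 10 Fgf15 had an SD of 1.09 and spanned a 10.6-fold range, against an SD of 0.62 and a 3.75-fold range in WT. These SDs exceeded those of 99.7% of the 19321 probe sets above background in KO and 98.7% in WT. Fgf10 had an SD of 0.81 in KO replicates 1 to 10 (5.83-fold range, above 99.3% of probe sets) and 0.69 in WT (5.51-fold range, above 99.1%). Both ligands thus varied widely within each genotype, but a wide spread was not particular to them. Among the listed marker genes, Otp and Pitx1 had larger SDs than Fgf10 in both KO replicates 1 to 10 and WT. En2 had a larger SD than Fgf15 in KO replicates 1 to 10. Other marker genes, such as Six3, spread less than Fgf10 in both sets. Whether these spreads share a source was not tested.

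Fgf8 was less variable, with an SD of 0.22 in KO replicates 1 to 10 and 0.27 in WT (0.20 without WT replicate 10). Of the feedback genes Spry1 spread most, with 0.56 in KO replicates 1 to 10 and 0.42 in WT (0.26 without WT replicate 10). The WT SDs of Fgf15 and Fgf10 were 0.63 and 0.72 without that array. Fgfr1 was the steadiest, with 0.04 in KO replicates 1 to 10 and 0.08 in WT. In a limma test of the absolute deviations from the group mean, 0 of the 37 genes differed in spread at an adjusted p below 0.05, against 1 of all probe sets, or 0.00346%. At an unadjusted p below 0.05 there were 3 genes (8.11%, against 6.72% of all probe sets), each more spread in KO (background 4.59%, and 2.14% for a smaller spread): Fgf1, Spred1 and Fgf15 (unadjusted p = 0.00241, 0.0161 and 0.0245; lowest adjusted p = 0.570). The SD of Fgf15 over KO replicates 11 to 13 was 0.78.

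**Figure D3:**
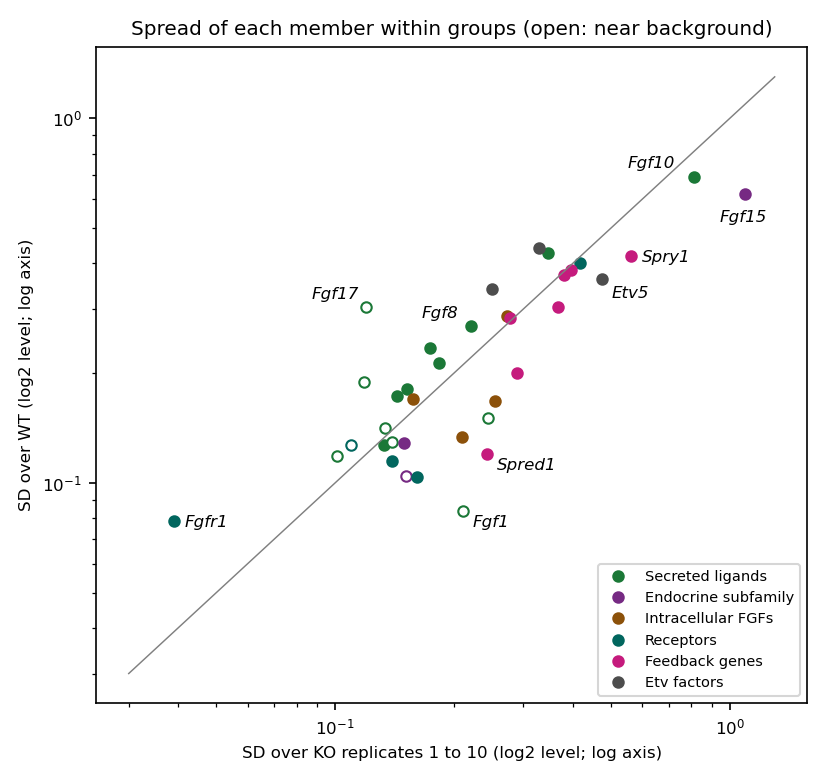
SD of the log2 level over KO replicates 1 to 10 (horizontal, log axis) against WT (vertical, log axis) for each of the 37 genes, coloured by role, with a line of equal SD; open points are near background. Fgf15 and Fgf10 lie at the upper right in both genotypes and Fgfr1 at the lower left.

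The feedback and Etv genes varied together from sample to sample, in both genotypes. Over the 45 pairs of these 10 genes the median Pearson r was 0.74 in KO replicates 1 to 10, where 34 pairs (75.6%) exceeded 0.5, and 0.73 in WT, where 42 pairs (93.3%) did. Among pairs drawn from every seventh probe set above background the median was 0.00 in both, and 10.01% of pairs in KO and 8.33% in WT exceeded 0.5. In KO the closest pair was Spry1 with Il17rd (r = 0.94) and the loosest Spry1 with Spred1 (r = −0.02). In WT the closest was Dusp6 with the factor Etv4 (r = 0.96). Part of the WT value rested on WT replicate 10, which had the highest level of 9 of the 10 genes (all except Spred1) among WT arrays, whereas 9.07% of probe sets above background were highest there. Without it the WT median was 0.50, with 23 of 45 pairs above 0.5 (background 9.49%), and Dusp6 with Etv4 kept an r of 0.87. These correlations describe pairs that share arrays and are given without a test. For Etv1 and Etv5 they use the brightest probe sets, which sit among genes of other chromosomes. These had an r with the second probe sets of 0.79 and 0.82 in KO replicates 1 to 10, and of 0.94 and 0.91 in WT.

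**Figure D4:**
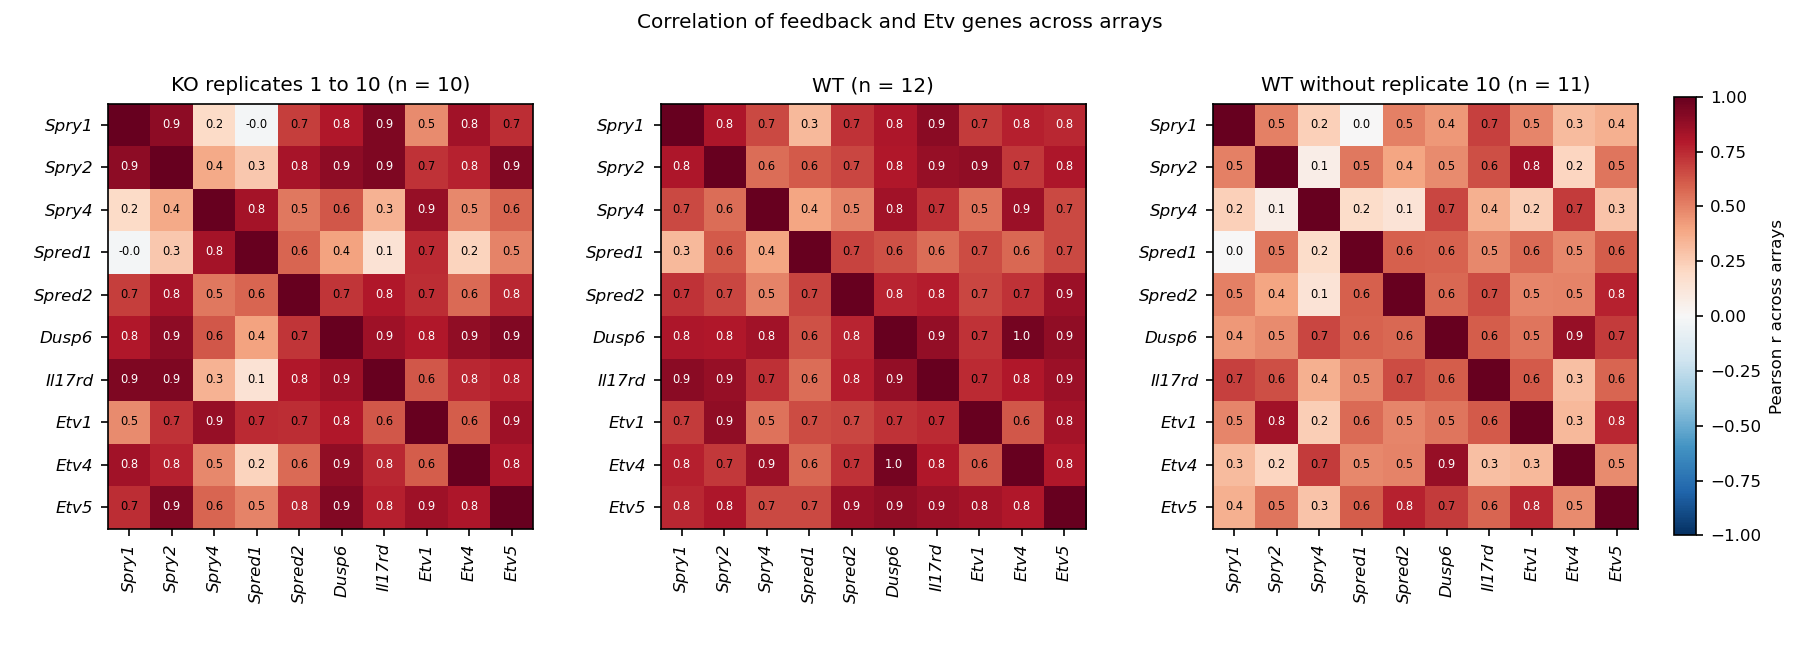
Pearson r across arrays for each pair of the 10 feedback and Etv genes in KO replicates 1 to 10, in WT and in WT without replicate 10, on a colour scale from −1 (blue) to 1 (red). Most cells are red in KO and WT, and the WT cells are paler without replicate 10.

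Levels of the ligands were then set against this readout across samples. Fgf8, Fgf10 and Fgf15 were each compared with the 10 feedback and Etv genes, with each other and with 9 marker lists, in KO replicates 1 to 10 (n = 10) and in WT (n = 12) apart, which made 120 relations with permutation p-values adjusted over all of them. At an adjusted p below 0.05 there were 9 relations. Of these, 7 joined Fgf8 to a feedback or Etv gene and 2 joined Fgf10 to ectoderm markers, while no relation of Fgf15 passed. In KO the genes joined to Fgf8 were Il17rd and Spry2, and in WT Il17rd, Dusp6, Spred2, Etv4 and Etv5. Without the 2 arrays farthest from the median of the ligand, 0 of the 120 relations passed. Without WT replicate 10 there were 11, among them Fgf10 with Spred2 and Etv5 (r = 0.82 and 0.84) and Fgf15 with Spred1 (r = −0.82) in WT. Also in WT, Fgf8 passed with the surface ectoderm list (r = 0.80, permutation adjusted p = 0.0392) and Fgf10 with the neuronal list (r = −0.82, permutation adjusted p = 0.0376). Fgf8 with the neuronal list had an r of −0.75 in KO, −0.32 in WT and −0.74 in WT without replicate 10, and did not pass. The part of ectoderm and neurons in the relations of Fgf8 was not tested.

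Il17rd, a membrane protein that blocks ERK signalling, was the only gene that passed with Fgf8 in both genotypes. In KO replicates 1 to 10 r was 0.89 (permutation p = 0.00125, adjusted p = 0.025) and rho 0.72 (permutation p = 0.0232, adjusted p = 0.134). In WT r was 0.90 (permutation p = 7e-05, adjusted p = 0.0042) and rho 0.87 (permutation p = 0.00049, adjusted p = 0.0294). A second probe set of Il17rd, near background, gave an r with Fgf8 of 0.89 in KO and 0.85 in WT. Without the 2 arrays farthest from the median of Fgf8, r was 0.61 in KO (permutation p = 0.112) and 0.75 in WT (permutation p = 0.0141), and leaving these arrays out also narrows the range of Fgf8. Without WT replicate 10 alone, r in WT was 0.81 (permutation p = 0.00327, adjusted p = 0.0392).

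The other relations of Fgf8 were weaker without single arrays as well. In KO replicates 1 to 10 Spry2 had an r of 0.83 (permutation p = 0.00241, adjusted p = 0.0327; rho 0.61, permutation p = 0.0663) and of 0.59 without the 2 farthest arrays (permutation p = 0.144). In WT Dusp6 had an r of 0.89 (permutation p = 0.00029, adjusted p = 0.0116; rho 0.77, permutation p = 0.00466) and of 0.64 without the 2 farthest arrays (permutation p = 0.0472). In WT Spred2 had an r of 0.86 (permutation p = 0.00058, adjusted p = 0.0174; rho 0.85, permutation p = 0.00112) and of 0.63 without them (permutation p = 0.0522). Etv4 and Etv5 had an r of 0.83 and 0.82 in WT (adjusted permutation p = 0.0327 and 0.0307; rho 0.69 and 0.80, permutation p = 0.0173 and 0.00254), and of 0.38 and 0.51 without them (permutation p = 0.264 and 0.134), so neither held without those arrays. The probe set of Etv5 on its own chromosome had an r with Fgf8 of 0.52 in KO and 0.87 in WT. The second probe set of Spred2 had 0.46 in KO and 0.74 in WT, against 0.66 and 0.86 for its brightest. Without WT replicate 10, Dusp6, Spred2, Etv4 and Etv5 had an r of 0.77, 0.77, 0.60 and 0.61 in WT and no longer passed. Spry1 missed the threshold, with an r of 0.84 in KO and 0.79 in WT (adjusted permutation p = 0.05004 and 0.0537; rho 0.76 and 0.55). When the relations were adjusted again with WT replicate 10 left out, Spry1 passed in KO (adjusted p = 0.0487) and had an r of 0.53 in WT (permutation adjusted p = 0.293). The midbrain and isthmus list had an r with Fgf8 of −0.16 in KO replicates 1 to 10 and 0.69 in WT (permutation p = 0.661 and 0.0301, adjusted p = 0.872 and 0.139; rho −0.26 and 0.41), and its part in the WT relations was not tested beyond leaving out replicate 10. Whether any r differed between KO and WT was not tested.

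The windows of 250 bases upstream of the start are shown for the 3 genes with the highest r with Fgf8 in WT among the 10 feedback and Etv genes, as RefSeq gives them (GRCm38.p6), because the Etv factors bind sites with the core GGAA. Capitals mark GGAA, or TTCC where the core lies on the opposite strand. Windows were found for 28 of the 37 genes, among them 8 of the 10 feedback and Etv genes. Il17rd (chr14:27038751-27039000, plus strand) had 4 cores, Dusp6 (chr10:99262981-99263230, plus strand) had 6 and Spred2 (chr11:19924192-19924441, plus strand) had 7. The other 7 windows of the feedback and Etv genes had 0 to 4 cores: 4 in Spred1, 3 in Spry2, 1 in Spry1, 2 and 1 in Etv1, and 4 and 0 in Etv5, which also passed with Fgf8 in WT. At least as many as in Il17rd, Dusp6 and Spred2 were found in 33.4%, 8.69% and 3.82% of 32851 windows of the same length, and 93.4% held 1 or more. These matches are a description of the sequence only.
Il17rd: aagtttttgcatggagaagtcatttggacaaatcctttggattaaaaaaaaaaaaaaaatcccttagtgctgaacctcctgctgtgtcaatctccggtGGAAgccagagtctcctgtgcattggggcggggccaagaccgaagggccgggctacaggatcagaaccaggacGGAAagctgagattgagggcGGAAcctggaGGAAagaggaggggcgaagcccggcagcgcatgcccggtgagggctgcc
Dusp6: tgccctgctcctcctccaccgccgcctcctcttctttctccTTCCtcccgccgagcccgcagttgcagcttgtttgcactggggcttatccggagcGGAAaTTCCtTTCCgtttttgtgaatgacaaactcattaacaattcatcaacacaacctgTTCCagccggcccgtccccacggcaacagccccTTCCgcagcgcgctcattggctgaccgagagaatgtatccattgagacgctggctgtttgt
Spred2: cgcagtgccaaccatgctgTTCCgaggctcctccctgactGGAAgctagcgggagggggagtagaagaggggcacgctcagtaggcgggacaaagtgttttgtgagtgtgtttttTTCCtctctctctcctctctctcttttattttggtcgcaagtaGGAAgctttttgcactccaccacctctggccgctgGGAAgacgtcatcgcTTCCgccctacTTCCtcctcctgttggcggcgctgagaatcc

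The relations of Fgf10 that passed in KO samples were those with markers of ectoderm. In KO replicates 1 to 10 its r was 0.95 with the oral ectoderm and pituitary list (permutation p = 3.00e-05, adjusted p = 0.0036; rho 0.95, permutation p = 0.0001) and 0.89 with the surface ectoderm list (permutation p = 0.00074, adjusted p = 0.0178; rho 0.88, permutation p = 0.00163). Without the 2 arrays farthest from the median of Fgf10 these were 0.89 (permutation p = 0.00201) and 0.75 (permutation p = 0.0345). In WT they were 0.48 (permutation p = 0.116, adjusted p = 0.330; rho 0.45) and 0.66 (permutation p = 0.0184, adjusted p = 0.116; rho 0.66). Without WT replicate 10 they were 0.54 (permutation p = 0.0867, adjusted p = 0.275) and 0.74 (permutation p = 0.00852, adjusted p = 0.0603) in WT.

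The oral ectoderm list was measured for 3 of 5 genes (Pitx1, Lhx3 and Hesx1, the last near background) and averaged 3.57 to 4.0 in KO replicates 11 to 13 and 3.46 to 4.55 in KO replicates 1 to 10, against 3.17 to 4.82 in WT. Single genes in KO replicates 1 to 10 had an r with Fgf10 of 0.94 for Pitx1, a homeobox gene of the stomodeum, and of 0.41 for Lhx3, a gene of the pituitary rudiment. Hesx1 had 0.65 there. In WT these were 0.43, 0.39 and 0.66, and 0.50, 0.41 and 0.75 without WT replicate 10. Over KO replicates 1 to 10 Pitx1 had an SD of 0.93, Lhx3 of 0.09 at levels of 3.33 to 3.59, and Hesx1 of 0.26. The value of this list there therefore rests largely on Pitx1. The surface ectoderm list was measured for 4 of 4 genes, with Krt5 near background, and averaged 5.89 to 6.35 in KO replicates 11 to 13 and 5.58 to 6.63 in KO replicates 1 to 10, against 5.46 to 6.35 in WT. The epithelial genes Epcam, Krt8 and Krt18 had an r with Fgf10 of 0.92, 0.88 and 0.82 in KO and of 0.46, 0.77 and 0.68 in WT. For Krt5 it was 0.18 in KO and 0.21 in WT. Without WT replicate 10 the WT values of these 4 genes were 0.50, 0.83, 0.78 and 0.25. How much ectoderm each dissection held was not measured, and its part in the level of Fgf10 was not tested.

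**Figure D5:**
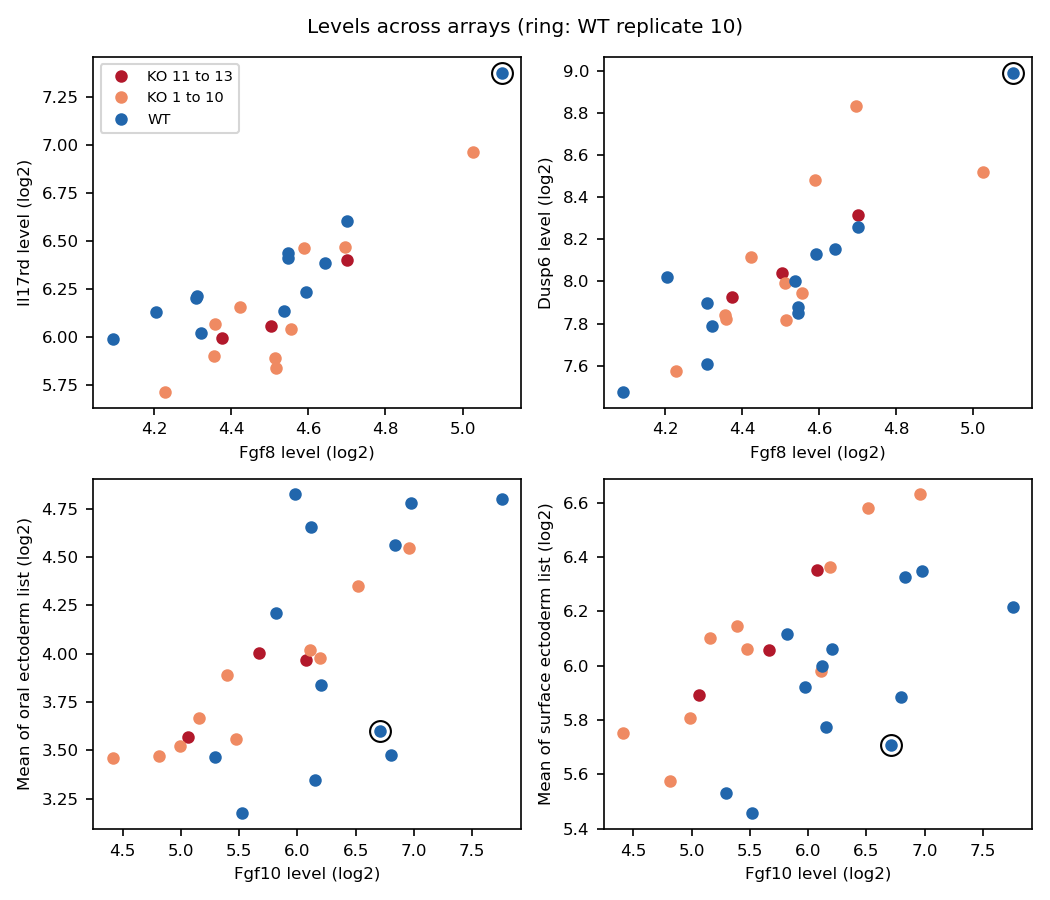
Log2 level of Fgf8 against Il17rd and Dusp6 (upper panels), and of Fgf10 against the mean log2 level of the oral and surface ectoderm lists (lower panels), 1 point per array in KO replicates 11 to 13, KO replicates 1 to 10 and WT; a ring marks WT replicate 10. KO and WT points run along a common band for Fgf8, with r of 0.89 and 0.90 for Il17rd. In the lower panels r was 0.95 in KO replicates 1 to 10 and 0.48 in WT for the oral ectoderm list. For the surface ectoderm list it was 0.89 and 0.66. Without WT replicate 10 the WT values were 0.54 and 0.74, and whether KO and WT differed was not tested.

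No relation among the 3 ligands passed. Fgf8 with Fgf10 had an r of −0.14 in KO replicates 1 to 10 and 0.58 in WT (permutation p = 0.713 and 0.0458, adjusted p = 0.886 and 0.177; rho 0.07 and 0.77). Fgf10 with Fgf15 had an r of −0.55 in KO replicates 1 to 10 and −0.57 in WT (permutation p = 0.0972 and 0.0521, adjusted p = 0.293 and 0.195; rho −0.53 and −0.57). Among 13254 named genes above background, those most like Fgf10 over the 12 WT arrays were Dgkk, Gm10825, Shh, Lgi2 and Amot. They had an r of 0.85, 0.35, 0.66, 0.53 and 0.88 in KO replicates 1 to 10, against 0.97, 0.94, 0.93, 0.93 and 0.92 in WT. The gene most like Fgf15 was Rspo3, an enhancer of WNT signalling (r = 0.68 in KO and 0.90 in WT). Most like Fgf8 were Rnf26, Pknox2, Camk2g, Socs3 and Il17rd, and of these Camk2g and Il17rd kept an r above 0.5 in KO, at 0.52 and 0.89. The highest of so many r values is high by selection, and they are given as a description.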

How the data were processed

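Per the labels and the study's methods, each of 13 KO and 12 WT samples of dissected tissue was run on 1 Affymetrix Mouse Gene 1.1 ST array. The authors deposited log2 values, with Affymetrix Expression Console 1.0, affy, R 2.7.0 and RMA named in their processing notes. Of 35556 probe sets, 6616 with identifiers below the lowest annotated one were left out and 28940 were tested. Of those tested, 21218 had 1 gene symbol, 1881 had several and 5841 had none. In all, 14 deposited values of other form, above 14 and so outside the log2 range, were set missing (0 in the 37 genes). Array medians were 4.64 to 4.76. The 25 arrays limit the precision.

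Each probe set was fitted in limma 3.58.1 (R 4.3.3) on genotype and a term for KO replicates 1 to 10, called at a two-sided Benjamini-Hochberg adjusted p below 0.05 over all probe sets. Spread was tested in limma on absolute deviations from group means, scaled for group size. Relations were tested with 100000 permutations. Fits were tested on simulated data. Named genes are Fgf8, Fgf10, Fgf15, those called in either fit or with an unadjusted p below 0.05, and up to 3 per role with the smallest p. Genes named in the relations were chosen after their values were seen. The genes and lists were chosen with earlier results of these data known. Replicate numbers did not pair samples (r of same-numbered KO and WT deviations −0.33 to 0.43, over 0.1 for 4 of 12 numbers). Alternatives were other normalizations, filters, weights, variance priors and thresholds, embryo sex, a replicate block and each array left out.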

Additional observations from a re-analysis of the deposited data

Results flagged for a closer look

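In KO replicates 1 to 10, Fgf9 stood out on 1 array: its log2 level was 4.24 in KO replicate 2, and the nearest other array had 3.90, a gap of 0.56 of the whole range. The other 36 FGF genes had no such array in this set. A test of this kind picks out about 1 in 20 groups by chance.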

How the results depend on the processing

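No FGF gene had an adjusted p below 0.05 under the alternatives run other than genotype alone. The same held for the pathway genes, which were run with KO replicates 11 to 13 and WT alone, the replicate block, both normalizations and single arrays left out. Over the whole array the 7 calls with the term changed to 0 when KO replicate 13 was left out and to 26 when WT replicate 10 was. With genotype as the only term, 4 FGF genes and 4 pathway genes passed, and 8 and 18 had an unadjusted p below 0.05. With KO replicates 11 to 13 and WT alone, 5 FGF genes had an unadjusted p below 0.05 (Fgf1, Fgf11, Fgf14, Fgf15 and Fgf23). With dim probe sets left out 1 did. With the replicate block as well, 0 FGF genes passed, and 12 pathway genes had an unadjusted p below 0.05. With single arrays left out, 1 to 4 FGF genes and 2 to 5 pathway genes had one. The counts were 1 without KO replicate 11 and 1 without KO replicate 12. The difference of Fgf8 was −0.053 without KO replicate 12 and −0.0025 without WT replicate 7, over a range of −0.053 to 0.11. The median of the endocrine genes was −0.31 with genes near background left out. The number of relations that passed was 9. It was 5 with rho, 15 with quantile normalization repeated, 14 with arrays centred on their medians, 16 with residuals after embryo sex, 11 without WT replicate 10 (an alternative chosen after the values were seen) and 0 without the 2 arrays farthest from the median of the ligand. That last setting used fewer arrays, and the cause of the other changes was not tested. Array signals near background limit 9 of the 37 genes.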
